A study of Mus musculus with 4 samples.

Results

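This account describes 10 genes that encode subunits of the BAF chromatin remodelling complex, in proliferating iMOP cells and in neurons derived from them. The genes were chosen by symbol in the 4 raw count tables, and all 10 were found among the 49997 genes listed. They form 2 sets of 5: the progenitor subunits Actl6a, Phf10, Dpf2, Ss18 and Smarca4, and the neuronal subunits Actl6b, Dpf1, Dpf3, Ss18l1 and Smarca2. iMOP cells are multipotent otic progenitors of the mouse inner ear that were immortalized as a line, and both states came from this one line with a wild-type genotype. The proliferating group (n = 2 libraries, labelled as biological replicates) was grown in DMEM/F12 with B27, carbenicillin and basic FGF at 20 ng/ml. The neuron group (n = 2 libraries) was grown in Neurobasal medium with N21, L-glutamine and K03861 at 1 µM, which inhibits CDK2, a kinase of the cell cycle. The groups therefore differed in medium, growth factor and drug together, which cannot be told apart from the change of state. In the titles, both libraries numbered 2 are also marked as set 2.

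BAF complexes, the mammalian SWI/SNF remodellers, use the energy of ATP to slide or evict nucleosomes and so open or close stretches of chromatin. Each complex has a single ATPase, encoded by Smarca4 (BRG1) or Smarca2 (BRM), and several positions that can be filled by one of a few related proteins. When neural progenitors leave the cell cycle, the actin-related protein encoded by Actl6a (BAF53a) is known to be replaced by that of Actl6b (BAF53b), the PHD finger proteins of Phf10 (BAF45a) and Dpf2 (BAF45d) by those of Dpf1 (BAF45b) and Dpf3 (BAF45c), and SS18 by its relative CREST, the product of Ss18l1. The microRNAs miR-9* (miR-9-3p) and miR-124 are known to repress Actl6a at its 3′ UTR during this exchange, and the repressor REST is known to hold these microRNAs down before it.

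The sequences below are those of the exchange at the BAF53 position, where one gene was detected in every library and its neuronal relative hardly at all. Sequences and positions are on GRCm38, the assembly that mm10 names. The mature microRNA and both promoters come from RefSeq (GRCm38.p6), and the target site from the GENCODE M21 transcripts. In the microRNA the seed, bases 2 to 8, is in capitals. In the site, at chr3:32726628-32726654 on the plus strand in the 3′ UTR of Actl6a, the capitals mark the 7 bases complementary to that seed, which start at base 38 of the UTR.
mmu-miR-9-3p: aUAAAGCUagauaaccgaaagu
Actl6a site: ctcaacgtctgtAGCTTTAgtacactc
The 3′ UTR of Actl6a in GENCODE is 371 bases long and held 1 such match, and the 196 bases of the longest Actl6b 3′ UTR held 0. Among the longest 3′ UTRs of the 10 genes, Smarca2 (952 bases) was the other one with a match, 1 in number. Of 15654 genes with a 3′ UTR at least as long as that of Actl6a, 2.82% had the match AGCTTTA within their first 371 bases (plus strand of the transcript). A match is a description of the sequence and not evidence of binding.

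The promoter windows of Actl6a and Actl6b cover 250 bases before and 50 after the start annotated in RefSeq, with CpG dinucleotides in capitals. They lie at chr3:32708296-32708595 and chr5:137553296-137553595, both on the plus strand. In GENCODE M21 the Actl6a gene starts further upstream, at 32706298, outside this window.
Actl6a promoter: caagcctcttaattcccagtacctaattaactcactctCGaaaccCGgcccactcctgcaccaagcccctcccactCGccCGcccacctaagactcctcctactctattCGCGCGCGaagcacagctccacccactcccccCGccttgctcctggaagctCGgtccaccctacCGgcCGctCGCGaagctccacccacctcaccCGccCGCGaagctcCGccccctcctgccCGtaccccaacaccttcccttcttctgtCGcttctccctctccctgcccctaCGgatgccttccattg
Actl6b promoter: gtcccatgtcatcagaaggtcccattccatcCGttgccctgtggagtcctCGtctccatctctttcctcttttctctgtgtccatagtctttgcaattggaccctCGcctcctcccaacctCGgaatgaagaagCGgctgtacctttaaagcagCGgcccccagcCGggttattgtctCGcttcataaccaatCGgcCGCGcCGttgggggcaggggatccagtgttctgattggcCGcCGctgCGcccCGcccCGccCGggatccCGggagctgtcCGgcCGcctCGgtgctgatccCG
The Actl6a window held 21 CpG dinucleotides and the Actl6b window 23, against a median of 7 over 32851 promoter windows, of which 24.8% and 21.5% held at least as many. RefSeq windows were matched for 9 of the 10 genes, and their CpG number ran from 17 in Dpf3 to 62 in Phf10. Actl6b thus had at least as many CpG dinucleotides in its RefSeq window as the relative that was detected in every library.

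Total RNA was sequenced after ribosomal RNA depletion with a stranded kit. The deposited totals ran from 7446361 to 14484011 counts per library, of which the 18S ribosomal row Rn18s-rs5 took 53.3% to 76.1%, so that 2595578 to 3850766 counts were left for all other genes. Levels below are given as CPM, counts brought to a common library size after TMM scaling, which adjusts for composition. Proliferating replicate 2 stood apart, with 17762 genes detected against 20012 to 21637 in the other libraries. It also had the fewest counts outside the 18S row, 2595578. As summed levels, the markers of the labelled states did not separate the groups. Some single markers were separated, with both neuron libraries above or below both proliferating ones. Of all tested genes, 12.9% were separated and higher in neurons and 14.5% separated and lower. The 17 neuron markers summed to 170.2 and 370.8 CPM in proliferating libraries 1 and 2 and to 209.2 and 388.0 CPM in neuron libraries 1 and 2, and Isl1 was at 0 in all libraries. Of the 14 tested neuron markers, Map2 and Elavl4 were higher in both neuron libraries than in either proliferating one, at 121.5 and 140.6 against 93.9 and 92.3 CPM for Map2 and at 17.7 and 38.0 against 7.56 and 12.2 CPM for Elavl4. The 13 proliferation markers summed to 383.7 and 187.3 CPM in the proliferating libraries and to 468.3 and 298.2 CPM in neuron libraries 1 and 2. Of these, Ccnd1 was separated, and lower in neurons. By fold change, 11 of the 13 were higher in neurons and 2 lower. In 8 of them each neuron library was above the proliferating library of the same number, against 28.8% of all tested genes. The 10 otic progenitor markers summed to 175.7 and 356.0 CPM in the proliferating libraries and to 188.9 and 83.2 CPM in neuron libraries 1 and 2. The 5 tested among them, Sox2, Nes, Sox9, Fgfr1 and Eya1, had a median log2 fold change of -0.62, with Sox9 separated and lower and Eya1 separated and higher in neurons, and Pax2 and Pax8 were at 0 in all libraries. The 6 hair cell markers summed to 2.88 and 2.57 CPM in the proliferating libraries and to 0.168 and 9.68 CPM in neuron libraries 1 and 2, with Pou4f3 and Otof at 0 in all libraries. The 12 glial markers summed to 80.8 and 156.6 CPM in the proliferating libraries and to 27.3 and 10.4 CPM in neuron libraries 1 and 2. These glial sums separated the groups. The 6 tested glial markers had a median log2 fold change of -4.22. Gfap, Fabp7, Olig1 and Olig2 were separated and lower in neurons, and Aqp4 and Cnp overlapped. Gfap had 181 and 89 counts in the proliferating libraries and 1 and 2 in neuron libraries 1 and 2. Its log2 fold change was -6.47 (edgeR adjusted p-value 0.11, and 0.016 with the replicate block). The part of these differences in the results below was not tested. In bulk RNA, fewer cells of a type and less RNA per cell cannot be told apart.

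No exchange of progenitor for neuronal subunit genes was detected between the 2 states. In the edgeR quasi-likelihood test, 0 of the 9 tested members rose and 0 fell at a threshold of 0.05 on the adjusted p-value, as did 0% of all 12783 tested genes in each direction. Without adjustment, 0 members had a p-value under 0.05, against 0.915% of genes higher and 2.51% lower. The tenth member, Actl6b, had too few counts to be tested. The 4 libraries of a member overlapped between the groups in 7 of 9 cases. The 2 exceptions, Dpf2 and Dpf1, were both lower in the neuron libraries, while 14.5% of all tested genes were separated in this direction. No tested member was separated in the other direction, in which 12.9% of all genes were.

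**Figure D1:**
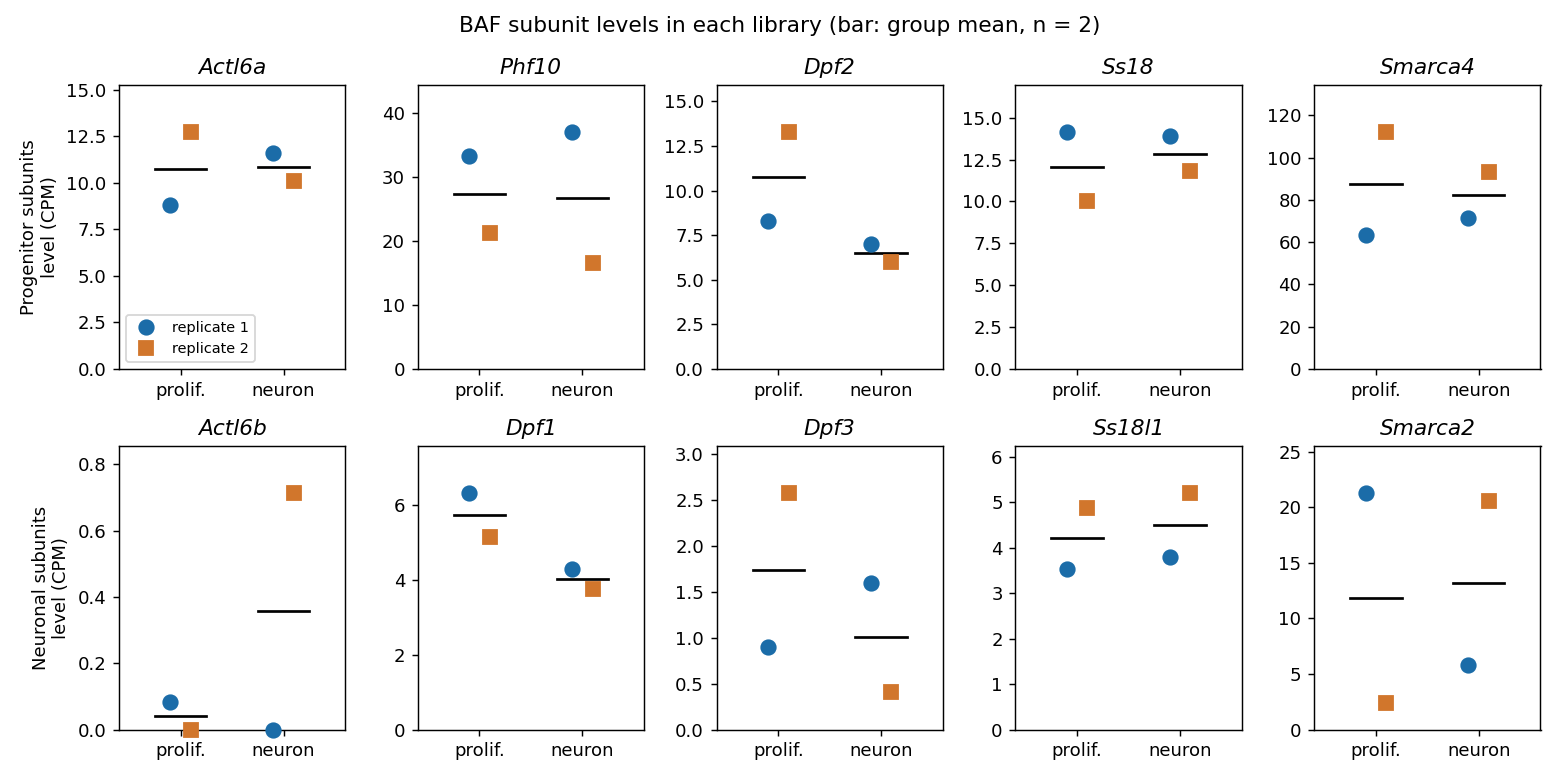
Level of each subunit gene in CPM (vertical axes, each starting at 0 with its own range) in the proliferating and neuron libraries, with circles for replicate 1, squares for replicate 2 and a bar at the mean of the 2 libraries. Smarca2 was high in proliferating replicate 1 and neuron replicate 2 and low in the other two, and Dpf2 and Dpf1 were the tested genes whose groups did not overlap.

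Smarca4, the ATPase gene BRG1 and the member with the most counts in every library, lies on chromosome 9 at 21616169 to 21704230. It had 771 and 827 counts in proliferating libraries 1 and 2 and 848 and 912 in neuron libraries 1 and 2. These counts corresponded to 63.3 and 111.9 CPM in proliferating cells and 71.3 and 93.0 CPM in neurons. Both neuron values lay between those of the proliferating replicates. Proliferating cells averaged 87.6 ± 34.4 CPM against 82.2 ± 15.3 CPM for neurons (SD, n = 2 each). Its fitted log2 fold change of -0.09 (SE 0.48) did not pass the test (edgeR adjusted p-value 0.9998).

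Smarca2, on chromosome 19 at 26605050 to 26778322, encodes the alternative ATPase BRM and varied most between replicates among the tested members. It had 259 and 18 counts in proliferating libraries 1 and 2 and 69 and 202 in neuron libraries 1 and 2. The corresponding levels were 21.3, 2.44, 5.80 and 20.6 CPM. The gene was thus high in one library of each state and low in the other. The log2 difference between proliferating replicates 1 and 2 was 3.03, at percentile 98.1 of the sizes of this difference over all tested genes, and that between the neuron replicates was -1.79, at percentile 94.9. Neurons minus proliferating cells came to -1.84 on the log2 scale in pair 1 and to 2.98 in pair 2, in opposite directions. The fitted log2 fold change of 0.14 (SE 0.98, 95% interval -2.15 to 2.42, edgeR adjusted p-value 0.9998) averages over these. It became 2.38 without proliferating replicate 1 (edgeR adjusted p-value 0.17), -0.67 without proliferating replicate 2, 0.76 without neuron replicate 1 and -1.03 without neuron replicate 2. With the replicate block it was 0.47 (SE 1.10).

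A ratio of the 2 ATPase genes within one library does not depend on the scaling between libraries. Of the summed ATPase counts, Smarca2 gave 25.1% (95% Wilson interval 22.6% to 27.9%) in proliferating replicate 1 and 2.13% (1.35% to 3.34%) in proliferating replicate 2. It gave 7.53% in neuron replicate 1 (5.99% to 9.42%) and 18.1% in neuron replicate 2 (15.98% to 20.5%). No interval overlapped another, so the libraries differed by more than counting error, but the order of the shares did not follow the state. The share per kilobase depended on the gene length that was used. Per kilobase of all annotated exons, which are longer for Smarca2, it was 13.2%, 0.978%, 3.56% and 9.13% in the same order. Per kilobase of the longest coding transcript, which is shorter for Smarca2, it was 26.6%, 2.29%, 8.06% and 19.3%, and on the deposited RPKM it was 28.1%, 2.46%, 8.63% and 20.5%. The intervals cover counting error only, and not the spread between libraries of a state. Reads were not marked with molecular identifiers, so copies of 1 molecule could not be told apart from separate molecules.

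**Figure D2:**
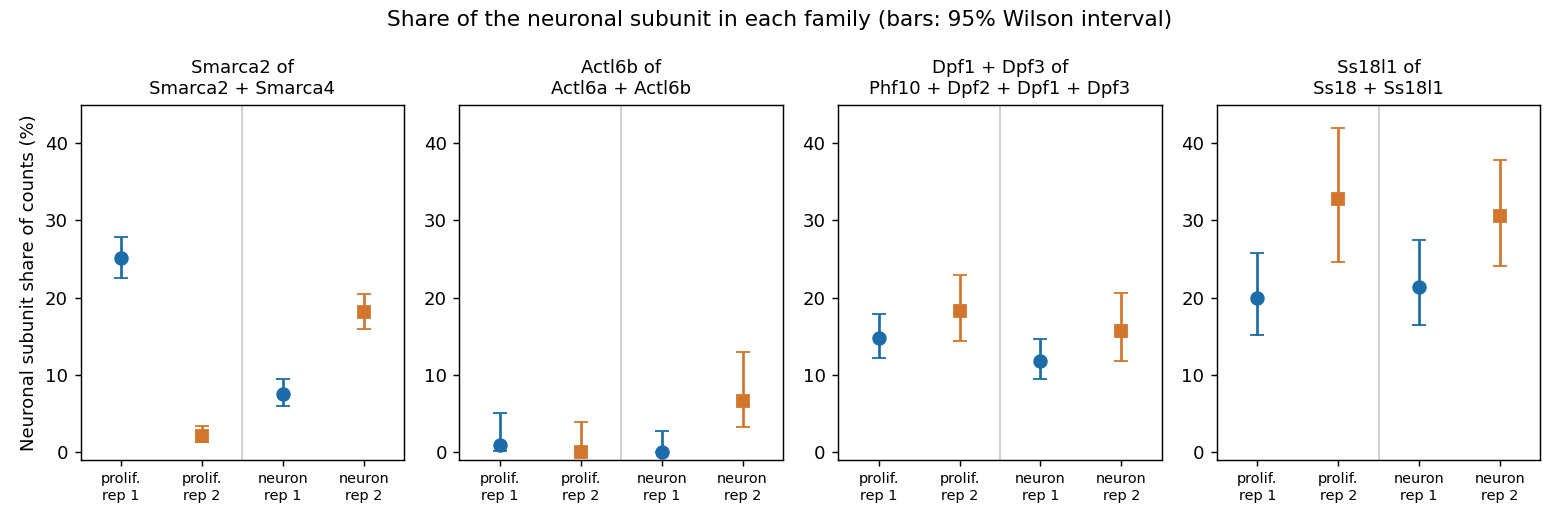
Share of counts from the neuronal subunit within each subunit family (vertical axis, percent) in the 4 libraries, with 95% Wilson intervals that cover counting error only. The Smarca2 share ran from 2.13% to 25.1% with both extremes in proliferating libraries, and the Ss18l1 share was near 20% in both replicate 1 libraries and above 30% in both replicate 2 libraries.

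At the BAF53 position the progenitor gene was present in every library at about the same mean level in both states. Actl6a had 107 and 94 counts in proliferating libraries 1 and 2 and 138 and 99 in neuron libraries 1 and 2, or 8.79, 12.7, 11.6 and 10.1 CPM. The neuron values again lay between the proliferating ones. Proliferating cells averaged 10.8 ± 2.78 CPM and neurons 10.9 ± 1.07 CPM (SD, n = 2 each). The fitted difference was 0.02 on the log2 scale (SE 0.48), and its 95% interval from -1.11 to 1.14 leaves room for about a doubling or a halving. Actl6a overlaps Mrpl47 on the opposite strand, and whether strand was used in counting is not given in the sources used here. The same limit holds for Phf10, Dpf2, Dpf1 and Smarca2, which also overlap annotated genes on the opposite strand.

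Actl6b, the gene of the neuron-specific protein BAF53b, was close to absent. It had 1 and 0 counts in proliferating libraries 1 and 2 and 0 and 7 in neuron libraries 1 and 2. The 7 counts of neuron replicate 2 correspond to 0.714 CPM, with an exact 95% Poisson interval of 0.287 to 1.47 CPM. A count of 0 allows up to 0.406 CPM in proliferating replicate 2 and up to 0.252 CPM in neuron replicate 1 (3 counts each). Over the summed libraries the level in neurons was 6.31 times that in proliferating cells. The exact 95% counting interval was 0.811 to 284.4, which includes no difference. It does not cover the spread between libraries of a state. Of the BAF53 counts in neuron replicate 2, Actl6b held 6.60% (95% Wilson interval 3.24% to 13.0%), against 0.926% in proliferating replicate 1 (0.164% to 5.06%). The 0 counts in the other 2 libraries allow up to 3.19% in proliferating replicate 2 and 2.17% in neuron replicate 1. So even in the library with most Actl6b, Actl6a supplied nearly all BAF53 counts.

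The libraries of the neuron group differed in the neuron markers in the same direction as in Actl6b. All 14 tested markers of the list of 17 had a higher CPM in neuron replicate 2 than in neuron replicate 1, against 50.1% of all tested genes. Other lists went with this split as well: 0 of the 5 tested otic progenitor markers and 3 of the 13 proliferation markers were higher in neuron replicate 2. The glial list did not, with 3 of the 6 tested markers higher in neuron replicate 2. Single genes of the glial and otic lists, Fabp7 and Sox9, had 211 and 320 counts in neuron replicate 1 and 9 and 41 in neuron replicate 2. Atoh1, the tested hair cell marker, had 1 count in neuron replicate 1 and 91 in neuron replicate 2, against 17 and 18 in the proliferating libraries. Examples of the neuron markers, chosen after their values were seen, are Snap25, Stmn3 and Syp. Snap25, a protein of synaptic vesicle fusion, had 2 counts in neuron replicate 1 and 35 in neuron replicate 2, against 16 and 7 in the proliferating libraries. Stmn3, a microtubule regulator of neurons, had 0 and 63 counts in neuron libraries 1 and 2 and 12 and 18 in the proliferating ones. Syp, a synaptic vesicle membrane protein, had 14 and 58 counts in neuron libraries 1 and 2 and 23 and 39 in the proliferating ones. These examples had a higher CPM in neuron replicate 2 than in either proliferating library. Tubb3, Stmn2, Syn1, Pou4f1 and Nefl did not, with Tubb3 at 104.6 CPM in neuron replicate 2 and 193.6 CPM in proliferating replicate 2. Between the proliferating libraries, the tested markers other than Map2, Dcx, Rbfox3, Snap25 and Prph were also higher in replicate 2. The part of these genes in the Actl6b counts was not tested.

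At the BAF45 position, Phf10 gave the most counts in every library. Phf10 had 404 and 157 counts in proliferating libraries 1 and 2 and 439 and 162 in neuron libraries 1 and 2, or 33.2, 21.3, 36.9 and 16.5 CPM. Both replicate 1 libraries were above both replicate 2 libraries. Its log2 fold change was -0.03 (SE 0.55, 95% interval -1.31 to 1.26). Phf10 supplied 68.1% and 50.3% of the BAF45 counts in the proliferating libraries and 74.2% and 61.8% in neuron libraries 1 and 2.

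Dpf2, the subunit that many cell types use, was lower in both neuron libraries. It had 101 and 98 counts in the proliferating libraries and 83 and 59 in neuron libraries 1 and 2, which is 8.30 and 13.3 CPM against 6.98 and 6.01 CPM. The groups did not overlap, and the gap between the nearest libraries was smaller than that between the proliferating replicates. The log2 fold change was -0.72 (SE 0.50, 95% interval -1.89 to 0.44). It had the lowest unadjusted p-value of the members, 0.186, with an edgeR adjusted p-value of 0.9998. The value lay between -1.06 and -0.33 when single libraries were left out, and its sign was the same in every fit that was run.

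The neuronal BAF45 genes were not higher in neurons. Dpf1 had 77 and 38 counts in the proliferating libraries and 51 and 37 in neuron libraries 1 and 2, or 6.33 and 5.14 CPM against 4.29 and 3.77 CPM. Its groups did not overlap either, and as for Dpf2 the gap between the nearest libraries was smaller than that between the proliferating replicates. The direction was the opposite of the exchange known from neural development. The log2 fold change was -0.51 (SE 0.49, 95% interval -1.66 to 0.64, edgeR adjusted p-value 0.9998), with pair differences of -0.54 and -0.43. Its sign was the same in every fit that was run. Dpf3, which is best known from heart and muscle as well as neurons, had 11 and 19 counts in the proliferating libraries and 19 and 4 in neuron libraries 1 and 2. It went opposite ways in the pairs, by 0.71 and by -2.20 on the log2 scale, at counts too low for a firm value (log2 fold change -0.74, SE 0.95). Without proliferating replicate 2 its log2 fold change was 0.18, and without neuron replicate 1 it was -2.08.

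Together, Dpf1 and Dpf3 made up 14.8% (95% Wilson interval 12.2% to 17.9%) of the BAF45 counts of proliferating replicate 1 and 18.3% (14.4% to 22.9%) of those of proliferating replicate 2. In neurons they supplied 11.8% in replicate 1 (9.47% to 14.7%) and 15.6% in replicate 2 (11.8% to 20.5%). The share was lower in neurons within each replicate number, with overlapping intervals. On the deposited RPKM the log2 ratio of Dpf1 plus Dpf3 to Phf10 plus Dpf2 differed between the groups by -0.52, with pair values of 0.24 for replicate 1 and -1.28 for replicate 2. Without single libraries the difference ran from -1.13 to 0.09, and it was above 0 without proliferating replicate 2. With counts per length of all annotated exons the pairs gave -0.34 and -0.40, so the direction in the replicate 1 pair depended on the gene lengths.

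At the SS18 position both genes were counted in every library, and neither passed the test between the states. Ss18 had 172 and 74 counts in the proliferating libraries and 165 and 116 in neuron libraries 1 and 2, or 14.1, 10.02, 13.9 and 11.8 CPM. Its log2 fold change was 0.09 (SE 0.48, 95% interval -1.04 to 1.21). Ss18l1, the gene of the calcium-responsive activator CREST, had 43 and 36 counts in the proliferating libraries and 45 and 51 in neuron libraries 1 and 2, or 3.53, 4.87, 3.79 and 5.20 CPM. Its log2 fold change was 0.10 (SE 0.52, 95% interval -1.12 to 1.32), with 0.09 in each pair. It was the one tested member that was higher in both neuron libraries than in the proliferating library of the same number. Its groups overlapped. The edgeR adjusted p-value was 0.9998 for both genes.

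The Ss18l1 share of the SS18 counts was higher in both replicate 2 libraries than in either replicate 1 library. Among the libraries numbered 1, proliferating cells had 20.0% (95% Wilson interval 15.2% to 25.9%) and neurons had 21.4% (16.4% to 27.5%). Among those numbered 2, the shares were 32.7% (24.7% to 41.9%) and 30.5% (24.1% to 37.9%). Intervals of the replicate 1 libraries overlapped those of the replicate 2 libraries, and the difference was not tested. On the deposited RPKM the log2 ratio of Ss18l1 to Ss18 was -0.82 ± 0.68 in proliferating cells and -0.83 ± 0.49 in neurons (SD, n = 2 each), a difference of -0.01. Without proliferating replicate 1 this difference was -0.49 and without proliferating replicate 2 it was 0.47.

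**Figure D3:**
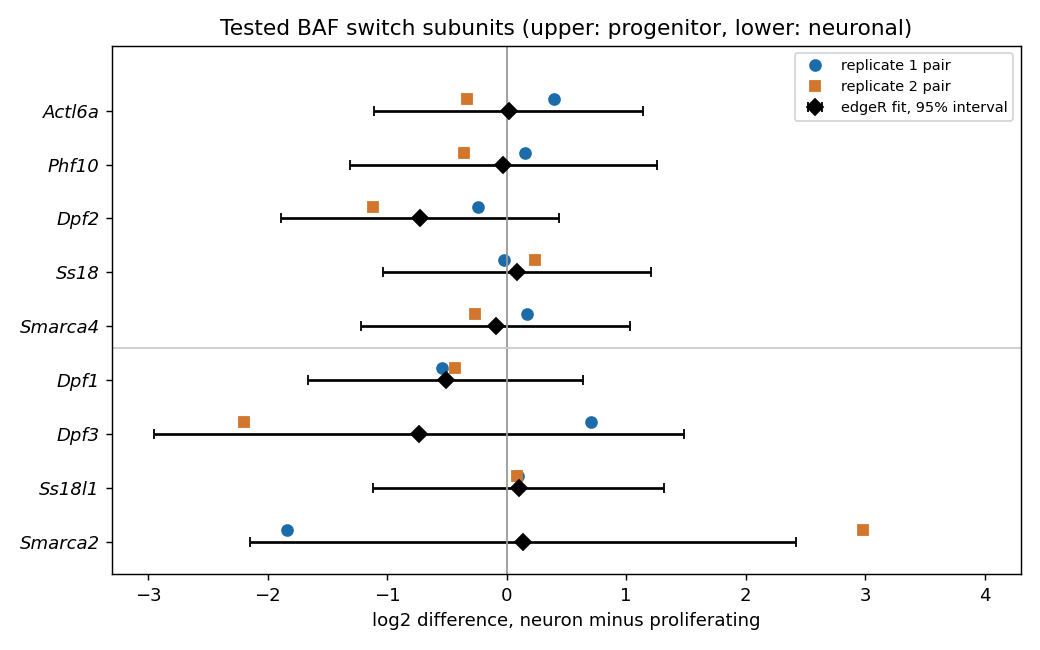
Log2 difference of neurons minus proliferating cells (horizontal axis) for the 9 tested members, with diamonds and bars for the edgeR estimate and its 95% interval, circles for the replicate 1 pair and squares for the replicate 2 pair. All 9 intervals include 0, and the pairs of Smarca2 lie at -1.84 and 2.98.

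Taken as sets, the progenitor subunits had a median log2 fold change of -0.03 over 5 tested genes, 2 higher and 3 lower in neurons, and it ran from -0.26 to 0.11 without single libraries. The neuronal subunits had a median of -0.20 over the 4 that were tested, 2 higher and 2 lower. The fitted fold change of Actl6b is left out because it depends on the prior count. Without a gene filter it was 2.59, with 7 counts in neuron replicate 2 and 0 in neuron replicate 1. With an Actl6b value above the 0.10 of Ss18l1, Ss18l1 would be the middle of the 5 genes. The sign of this median therefore depends on leaving out Actl6b. The median over all tested genes was 0.02. Of the 9 tested members, 6 went opposite ways in the replicate pairs, against 45.7% of all tested genes. Dpf2 and Dpf1 were lower and Ss18l1 was higher in both pairs. With the replicate number as a block, 0 members had an unadjusted p-value under 0.05, against 2.7% of genes higher and 3.48% lower, and the lowest member value was 0.187 for Dpf2.

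Levels of different genes are comparable only per length. The lengths implied by the deposited RPKM were 1.03 to 13.9 times the summed annotated exons of the members in GENCODE M21, so the order was taken from CPM per kilobase of annotated exons. On this scale the level of Smarca4 was 13.5 ± 5.31 in proliferating cells and 12.7 ± 2.36 in neurons (SD, n = 2 each). Phf10 followed with 5.54 ± 1.72 and 5.44 ± 2.94, and Actl6a with 2.77 ± 0.716 and 2.79 ± 0.276. On this length these 3 genes did not overlap with each other in either state. Per kilobase of the longest coding transcript, Phf10 stood above Smarca4, at 16.4 ± 5.08 against 13.7 ± 5.39 in proliferating cells and 16.1 ± 8.68 against 12.9 ± 2.40 in neurons (SD, n = 2 each), and the libraries of these genes overlapped in both states. Below them, per kilobase of annotated exons, Dpf2 (1.66 and 0.9996), Ss18 (1.28 and 1.36), Dpf1 (1.07 and 0.7498), Ss18l1 (0.968 and 1.03) and Smarca2 (0.831 and 0.925) lay close together, each given as the mean in proliferating cells and in neurons. In proliferating cells each neighbouring pair among these 5 overlapped over its libraries, and in neurons all did but Ss18 and Ss18l1. Dpf3 reached 0.411 and 0.237, and Actl6b 0.0096 and 0.084. The neuronal genes Dpf3 and Actl6b were the lowest of the 10 in both states with either length.

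The other subunits of the complex showed no shift between the states as a list. All 21 genes of this list were tested, and 0 were called and 0 had an unadjusted p-value under 0.05. In neurons 12 were higher and 9 lower, with a median log2 fold change of 0.16. Both pairs were higher for 6 genes and lower for 8, against 28.8% and 25.5% of all tested genes, and 7 genes went opposite ways. The groups did not overlap for 4 genes of the 21 that were higher and 3 that were lower, against 12.9% and 14.5% of all tested genes. Bcl11a, a zinc finger subunit abundant in neurons, had 224 and 130 counts in the proliferating libraries and 393 and 316 in neuron libraries 1 and 2. Its levels of 18.4 and 17.6 CPM against 33.1 and 32.2 CPM differed by more than the spread within either group, with a log2 fold change of 0.86 (SE 0.44, edgeR adjusted p-value 0.9998). Arid1b, a scaffold of the canonical BAF complex, had 34.9 and 35.5 CPM in proliferating cells and 52.1 and 51.6 CPM in neurons (log2 fold change 0.56, SE 0.43). Brd7, a bromodomain subunit of the PBAF form, had 17.6 and 13.3 CPM against 24.1 and 23.8 CPM. Smarce1, a core subunit, had 9.94 and 11.4 CPM against 15.5 and 14.5 CPM. The separated genes that were lower were Bcl11b, Bcl7c and Bicral. Bcl11b, the paralogue of Bcl11a, had 2.46 and 5.01 CPM in proliferating cells and 2.27 and 1.83 CPM in neurons (log2 fold change -0.84, SE 0.62). Bcl7c had 6.49 and 10.02 CPM against 4.46 and 6.12 CPM, and Bicral 7.23 and 6.23 CPM against 5.64 and 5.81 CPM.

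Some of the other subunits had a single library apart. Pbrm1, the scaffold of PBAF, which also takes up Phf10, had 100.3 CPM in proliferating replicate 1, 21.4 in proliferating replicate 2, and 85.0 and 68.2 in neuron libraries 1 and 2. Proliferating replicate 2 was the low library for Pbrm1 as for Smarca2, and also for the proliferation gene Mki67, with 93.1 and 10.96 CPM in the proliferating libraries against 118.4 and 46.8 in neurons. Actb, whose product beta-actin is both a BAF subunit and the main cytoskeletal actin, had 399.8 and 1577 CPM in the proliferating libraries and 338.2 and 415.6 in neuron libraries 1 and 2. Its log2 fold change was -1.39 (SE 0.63, edgeR adjusted p-value 0.9998). The Smarcd paralogues likewise showed no called difference. Smarcd1 had 10.4 and 26.8 CPM in proliferating cells and 8.50 and 10.7 CPM in neurons. Smarcd2 had 7.48 and 6.63 CPM against 7.40 and 15.5 CPM (log2 fold change 0.69, SE 0.54), and Smarcd3 had 2.22 and 1.35 CPM against 1.93 and 2.34 CPM.

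**Figure D4:**
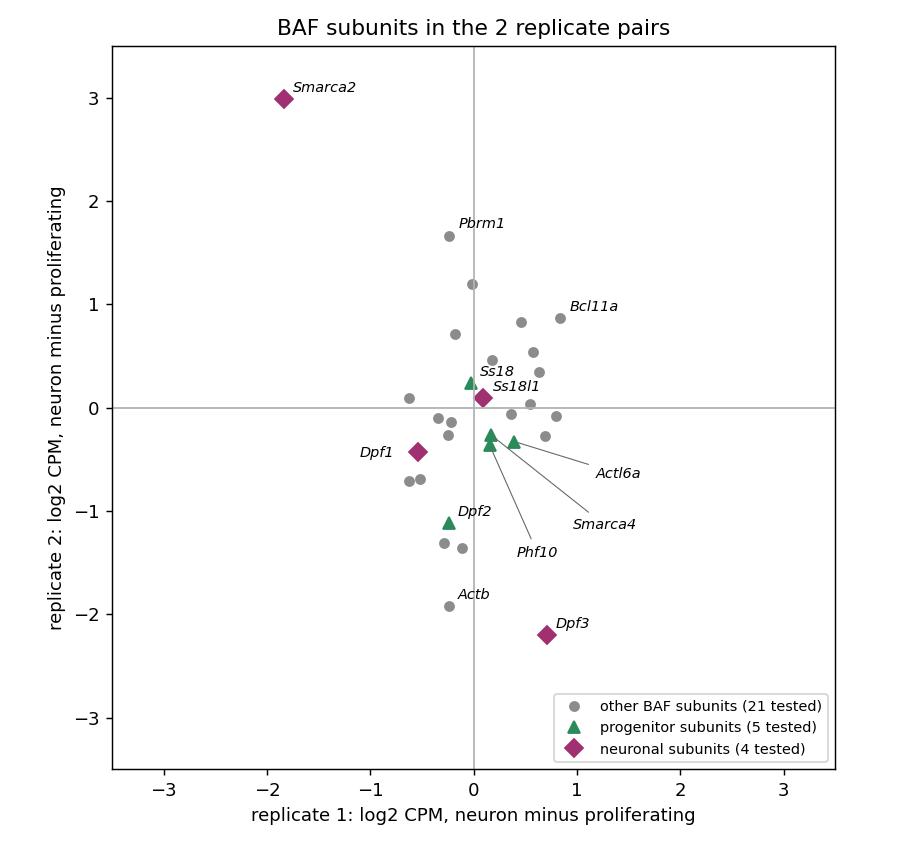
Log2 difference of neurons minus proliferating cells in the replicate 1 pair (horizontal axis) against the replicate 2 pair (vertical axis) for the tested progenitor subunits (triangles), neuronal subunits (diamonds) and 21 other BAF subunits (grey circles). Smarca2 lies at -1.84 and 2.98 and Dpf3 at 0.71 and -2.20, in quadrants of opposite sign, while Bcl11a lies at 0.84 and 0.87.

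The protein of Actl6a is also a subunit of the INO80 remodeller and of the TIP60/EP400 acetyltransferase complex, which are not known to take up that of Actl6b. All 20 genes of this list were tested, and 0 were called and 0 had an unadjusted p-value under 0.05. Their median log2 fold change was -0.13, with 8 higher and 12 lower in neurons. The ATPase gene Ino80 had 17.1 and 14.6 CPM in the proliferating libraries and 16.7 and 12.7 CPM in neuron libraries 1 and 2. Ep400 had 55.0 and 64.7 CPM against 49.97 and 65.04 CPM. The acetyltransferase gene Kat5 had 6.49 and 10.3 CPM against 7.74 and 6.52 CPM.

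The known regulators of the exchange were measured in part. Of the 14 genes listed, 7 were tested, with 0 called, 5 higher and 2 lower in neurons. Rest, the repressor of neuronal genes in progenitors, had 366 and 149 counts in the proliferating libraries and 347 and 144 in neuron libraries 1 and 2, or 30.1, 20.2, 29.2 and 14.7 CPM. Its log2 fold change was -0.20 (SE 0.53), and its groups overlapped. Ptbp1, a splicing repressor that gives way to its paralogue in neurons, had 25.9 and 57.0 CPM in proliferating cells and 23.0 and 32.1 CPM in neurons. The paralogue Ptbp2 had 26.9 and 13.5 CPM against 47.7 and 22.02 CPM, higher in neurons within each replicate number (log2 fold change 0.78, SE 0.58, edgeR adjusted p-value 0.9998).

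The microRNA genes themselves were hardly seen, and mature microRNAs are not captured by libraries of this kind. Mir9-1 had 11 and 8 counts in the proliferating libraries and 4 and 0 in neuron libraries 1 and 2, too few to be tested. The 3 Mir124a genes and Mir124-2hg were at 0 counts in all libraries. The host transcript C130071C03Rik, in which Mir9-2 lies, had 366 and 219 counts in the proliferating libraries and 913 and 323 in neuron libraries 1 and 2. These are 30.1 and 29.6 CPM against 76.8 and 32.9 CPM, so the groups did not overlap, and neuron replicate 1 stood out. Its log2 fold change was 0.88 (SE 0.54, edgeR adjusted p-value 0.9998). Mir9-3hg had 1.81 and 3.11 CPM in proliferating cells and 4.54 and 2.14 CPM in neurons. Actl6a, whose 3′ UTR holds the seed match to miR-9-3p shown above, had 11.6 CPM in neuron replicate 1 and 10.1 CPM in neuron replicate 2. Levels of mature miR-9-3p were not measured.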

How the data were processed

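Raw counts per gene and RPKM values were deposited by the authors for each of the 4 libraries. Per the submitters' processing notes, HISAT2, SAMtools and featureCounts were used with the mm10 build; the annotation, strand setting and treatment of reads with several matches are not given in the sources used here. The deposited RPKM equals the count divided by the column total and by one length per gene. Groups and replicate numbers came from the titles. The counts were tested with edgeR 4.0.16 in R 4.3.3 (TMM, filterByExpr with minimum count 10 and minimum total 15, glmQLFit, glmQLFTest, group as the single term, two-sided, Benjamini-Hochberg over all 12783 kept genes). SE is the fold change over the root of the F statistic. Differences within a pair were taken between log2 CPM values (prior count 2) and are given as values, and the fit with the replicate block tested differences within pairs.

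Same-numbered libraries share the words set 2 or lack them, and their deviations from the group means correlated across genes with r = 0.33, so a fit with the replicate block was run. The 10 members and the gene lists were chosen with earlier results of these data known. Every member is named, and any gene of the lists could be. DESeq2 1.42.0, limma 3.58.1 on log2(RPKM + 1) and log2(RPKM + 0.1), other scalings and filters and leaving out single libraries were alternatives. The fitting was also run on simulated counts with changes larger than the fitted ones of the tested members. That run does not show how well smaller changes would be found. Shares, sequences and figures were made in Python 3.11.15 with scipy 1.17.1.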

Additional observations from a re-analysis of the deposited data

How the results depend on the processing

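All results here rest on 2 libraries per state and on few counts per member, so that intervals of about 1 on the log2 scale each way are the limit for most members. No member was called in any fit that was run, and the lowest adjusted p-value of a member was 0.17, for Smarca2 without proliferating replicate 1. Dpf2 and Dpf1 were the members whose sign held in every fit.

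The number of called genes over the whole table was 0 in each direction in the main test, with 117 higher and 321 lower at an unadjusted p-value under 0.05. It was 12 higher and 48 lower with DESeq2, 41 higher and 122 lower without a gene filter, and 2 lower with library size alone. It was 1 lower with log2(RPKM + 1), 2 lower with log2(RPKM + 0.1) and 3 lower with the replicate block. Leaving out single libraries gave 3 to 29 genes higher and 11 to 84 lower, with 1 library left in a group and assumed to vary like the other group. The replicate block changed no call of a member and the sign of none. The filter on CPM kept the same number of genes, and leaving out the 18S row changed no direction.

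Library size alone shifted the median of all genes by -0.29. It gave log2 fold changes of -0.13 for Actl6a, -0.25 for Ss18, -0.16 for Ss18l1 and -0.78 for Smarca2, all opposite in sign to the main values. With log2(RPKM + 1) they were -0.13, -0.079, -0.039 and -0.099 in the same order, and with log2(RPKM + 0.1) they were -0.18, -0.12, -0.11 and -0.15. Phf10 had 0.0001 without a gene filter. The cause of these changes of sign was not tested.

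Leaving out single libraries gave ranges of log2 fold changes of -0.26 to 0.32 for Actl6a, -0.75 to 0.44 for Phf10, -0.12 to 0.33 for Ss18, -0.48 to 0.39 for Smarca4, -0.16 to 0.36 for Ss18l1, -2.08 to 0.18 for Dpf3 and -1.03 to 2.38 for Smarca2. For the difference in the log2 ratio of Ss18l1 to Ss18 the range was -0.49 to 0.47, and for that of Dpf1 plus Dpf3 to Phf10 plus Dpf2 it was -1.13 to 0.095.

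The median log2 fold change of the progenitor subunits, -0.03 in the main test, was -0.27 with library size alone, -0.25 with log2(RPKM + 0.1) and -0.13 with log2(RPKM + 1). The median of the neuronal subunits, -0.20 in the main test, was -0.67 with library size alone, -0.27 with log2(RPKM + 0.1), -0.089 with log2(RPKM + 1) and -0.16 without a gene filter, and -0.28 to -0.19 without single libraries. Each of these medians is over the same 4 genes and leaves out Actl6b, also the one without a gene filter. In that fit Actl6b had a log2 fold change of 2.59, with which Ss18l1, at 0.15, would be the middle gene. That of the other BAF subunits, 0.16, was -0.19 with library size alone, -0.035 with log2(RPKM + 0.1), -0.0165 with log2(RPKM + 1), 0.21 without a gene filter and 0.21 with the replicate block, and -0.15 to 0.17 without single libraries. That of the complexes sharing Actl6a, -0.13, was -0.34 with library size alone and -0.31 with log2(RPKM + 0.1), and -0.33 to 0.16 without single libraries. The lengths from annotated exons, and the order of levels by the longest coding transcript, were alternatives chosen after seeing the data.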
